A study of Mus musculus with 11 samples.

Results

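The cytosolic ribosomal protein genes encode the proteins of the cell's ribosomes. They were taken as every row of the count table whose symbol starts with Rpl or Rps followed by a digit, or is Rplp0, Rplp1, Rplp2 or Rpsa, leaving out the Rps6k kinases (10 rows) and symbols that contain -ps (10 rows, the usual form of a pseudogene's name). The rule took 88 of 16934 genes. Of these, 77 encode proteins of the ribosome itself, 46 of the large 60S subunit and 31 of the small 40S subunit. The other 11 are the paralogues and copies Rpl7l1, Rpl22l1, Rpl32l, Rpl36al, Rpl37rt, Rpl39l, Rps4l, Rps27l and Rps27rt, the Rps19-binding protein gene Rps19bp1, and Rps23rg1. Ribosomal protein genes with symbols of another form, such as Fau and Rack1, are described separately. Of the 88, 83 averaged at least 50 CPM (counts scaled to a common library size), and 87 passed the filter on low counts. The gene left out, Rps23rg1, had 3 counts in each of 4 libraries and none in the others.

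The libraries come from primary microglia, the resident macrophages of the brain, grown from newborn C57BL/6 pups and kept in serum-containing medium, sequenced with a kit that reads the 3′ ends of mRNAs. Microglia alone gave 4 libraries. A 6 h co-culture with primary cortical neurons that had been left untreated gave 3. A 6 h co-culture with cortical neurons that carried fibrils gave 4; these fibrils, of α-synuclein tagged with Atto488, were given to the neurons at 0.1 µM over 16 h and the rest was washed off. No transgene or Cre is named in the labels, and fibrils were given to the neurons and not directly to the microglia. Cultured microglia are a limited model of microglia in the brain, and the labels do not say how microglia were parted from neurons before RNA was extracted. Nor do they say if each library is its own culture or animal, and p-values therefore measure the spread between these libraries, which may be technical. The series title names tunneling nanotubes between microglia and neurons.

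As background, a ribosome is built from ribosomal RNA and a fixed set of proteins, nearly all present once per particle, so their genes are expressed in parallel and at high levels in every cell. The small subunit decodes the mRNA and the large subunit forms the peptide bond. Most of these mRNAs belong to the 5′ terminal oligopyrimidine (TOP) class: they begin with a C followed by a run of C and T, and their translation is held under the kinase complex mTORC1 through LARP1. In macrophages, to which microglia belong, activation can alter translation through this pathway without a matching change of mRNA level, which these libraries would not show.

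The start regions of 6 genes are shown because the differences between libraries described further on involve them, and because Rps27 and Rps27rt share the bases of their leader. Each line gives 30 bases before and 20 bases from the annotated start, 5′ to 3′ on the gene's strand, from the RefSeq annotation of GRCm38.p6. Capitals mark a match, a C followed by at least 4 bases that are each C or T, where one was found within 5 bases of the start.
Rplp2 (chr7:141447621-141447670, plus strand): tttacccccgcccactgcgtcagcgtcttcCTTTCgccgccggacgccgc
Rps27 (chr3:90213629-90213678, minus strand): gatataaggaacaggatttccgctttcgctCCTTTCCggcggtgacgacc
Rps27rt (chr9:114982720-114982769, minus strand): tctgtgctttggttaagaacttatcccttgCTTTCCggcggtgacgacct
Rps6 (chr4:86857348-86857397, minus strand): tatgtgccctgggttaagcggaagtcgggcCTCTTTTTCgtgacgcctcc
Rpl39 (chrX:37085203-37085252, minus strand): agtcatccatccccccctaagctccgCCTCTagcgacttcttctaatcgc
Rps12 (chr10:23787190-23787239, minus strand): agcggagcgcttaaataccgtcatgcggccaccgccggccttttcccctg
In Rplp2, Rps27, Rps27rt and Rps6 the match begins at the annotated start, and in Rpl39 it begins 4 bases before it. In Rplp2, Rps27 and Rps6 C or T also stands directly before the match, so the run of pyrimidines begins earlier than the capitals. In Rps12 no match was found within 5 bases of the start used, though a run of C and T stands further on in its line. That start lies inside the gene's span, chr10:23785183-23787383, whereas in the other genes shown it is an edge of the span. Among genes described here whose windows are not printed, Rps27l and Rps23 had a match 1 and 3 bases after the start, and Rpl26 and Rpl37rt had none. A start window was found for 67 of the 88 genes. A C followed by at least 4 bases that are each C or T, read on the gene's own strand, stood exactly at the annotated start in 15 of the 67 (22.4%), against 3.01% of 27025 genes with a window. Within 5 bases of that start it was found in 32 of the 67 (47.8%), against 21.2% of all. A match is a description of letters and of where RefSeq places the start, which may differ from the start used in microglia.

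The genes lie on 19 chromosomes, and 4 of them are on X. Their mRNAs are short, with a median of 704 nt over the 84 genes that have a GENCODE M21 protein-coding transcript, against 1949 nt over 21877 protein-coding genes, and 69 are under 1000 nt. Levels are given in CPM, counts relative to the library's total after trimmed-mean (TMM) scaling. They were not divided by length because the kit counts 1 tag near the 3′ end of an mRNA.

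Total counts per library ran from 8253070 to 16802451, and 9157 to 11739 genes had a count. The 12 microglial markers summed to 14530.4 to 15558.5 CPM in microglia alone, 18136.6 to 21186.8 beside untreated neurons and 15779.8 to 21496.5 beside fibril-loaded neurons. The 16 neuronal markers summed to 1287 to 1547, 631 to 879 and 789.7 to 1190 CPM in the same order, so their highest sums were in the libraries without neurons. Snap25 was at 0 in every group, Nefm and Slc17a7 in microglia alone and beside untreated neurons, Gad1 in both co-cultures, and Stmn2, Syn1 and Gap43 beside untreated neurons. Astrocyte markers summed to at most 104 CPM in any library, oligodendrocyte markers to at most 280.3, fibroblast markers to at most 22.02 and endothelial markers to at most 52.04. The part of other cell types in the values below was not tested. In bulk RNA, fewer cells of a type and less RNA per cell cannot be told apart.

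As a group, the 88 genes had mean summed levels that differed between conditions by less than the SD of any group, and microglia alone had the widest spread. Their summed level was 48046, 64363, 44628 and 58356 CPM in microglia alone, 54636, 50849 and 57755 CPM beside untreated neurons, and 50315, 53525, 56088 and 49265 CPM beside fibril-loaded neurons. The highest and the lowest library of the series were both microglia alone, and both sets of co-culture libraries lay between them. The means were 53848 ± 9121, 54413 ± 3458 and 52298 ± 3109 CPM (SD, n = 4, 3 and 4). As a share of all counts the genes took 4.23% to 6.16% of a library. With Rn45s left out of the total the share was 6.37 ± 1.06% in microglia alone, 6.39 ± 0.511% beside untreated and 6.18 ± 0.375% beside fibril-loaded neurons.

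The row Rn45s is named for the 45S precursor, made by RNA polymerase I, of ribosomal RNA, the other component of the ribosome. The kit reads the 3′ ends of mRNAs, so counts of this row need not measure the level of the precursor. How these counts arose was not tested. Rn45s took 24.8, 20.1, 18.7 and 14% in microglia alone, 15.7, 11.5 and 10.7% beside untreated neurons, and 17.01, 11.7, 10.97 and 11.3% beside fibril-loaded neurons. Microglia alone held the highest 3 shares of the series, but its library 4 lay within the range of the co-cultures, and library 1 beside fibril-loaded neurons stood above the other 3 of its group. Means were 19.4 ± 4.45%, 12.6 ± 2.69% and 12.8 ± 2.85% (SD, n = 4, 3 and 4). A two-sided exact permutation test over libraries gave p = 0.0857 for untreated neurons against microglia alone, 0.0571 for fibril-loaded neurons against microglia alone and 0.914 between the co-cultures. Adjusted over these 3 comparisons the values were 0.129, 0.129 and 0.914, and the smallest p this design allows is 0.0286. In edgeR the log2 fold change of Rn45s was -0.73 (SE 0.32, 95% interval -1.395 to -0.06, adjusted p = 0.438) and -0.72 (SE 0.29, 95% interval -1.33 to -0.11, adjusted p = 0.524) against microglia alone. Neither passed. For each count of a ribosomal protein gene there were 3.95 ± 1.5 counts of Rn45s in microglia alone, 2.29 ± 0.593 beside untreated and 2.41 ± 0.730 beside fibril-loaded neurons, with 2.35 to 5.87 in microglia alone overlapping 1.74 to 2.92 and 1.85 to 3.48.

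The summed level of the 46 genes of the 60S subunit was above that of the 31 genes of the 40S subunit in every library. These sums were not divided by the number of genes, so their ratio is not a comparison per gene. The ratio of 60S to 40S CPM was 1.57, 1.19, 1.299 and 1.38 in microglia alone, 1.12, 1.28 and 1.16 beside untreated neurons, and 1.16, 1.23, 1.25 and 1.21 beside fibril-loaded neurons. Library 1 of microglia alone was the most uneven and its library 2 lay among the co-cultures, so the groups overlapped. Group means were 1.36 ± 0.163, 1.18 ± 0.0832 and 1.21 ± 0.0381 (SD, n = 4, 3 and 4).

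**Figure D1:**
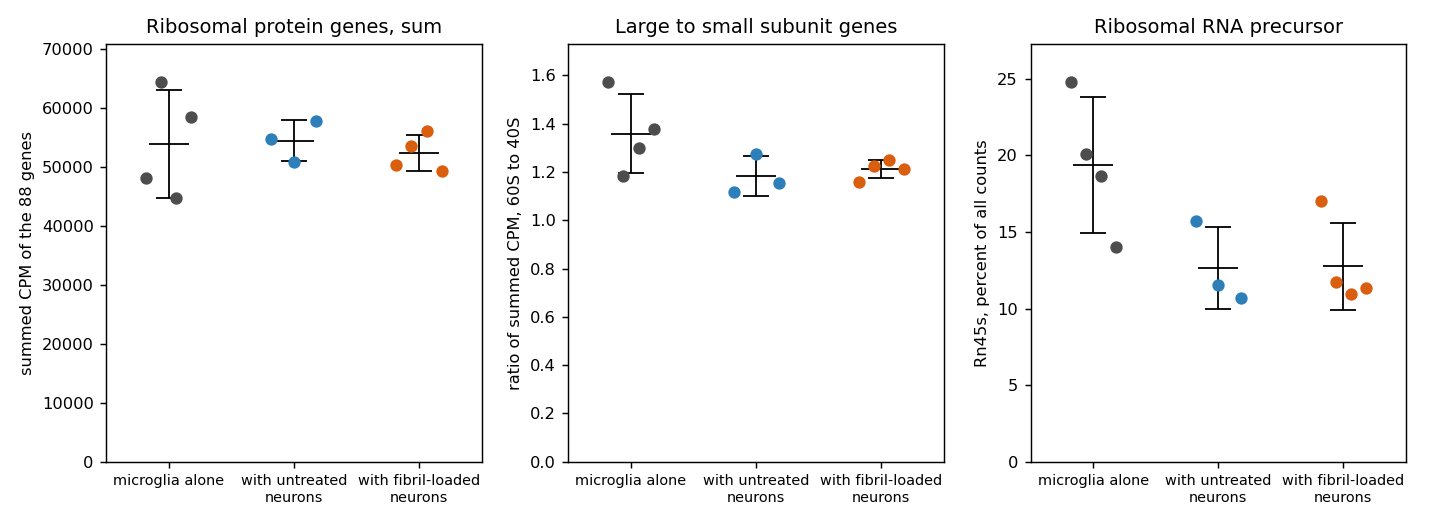
Summed CPM of the 88 ribosomal protein genes, ratio of summed 60S to 40S CPM, and Rn45s as a percent of all counts; each point is a library and the black bars are group means ± SD. Summed CPM of microglia alone spans 44628.2 to 64363.4 and encloses both co-cultures, and Rn45s reaches 24.8% in microglia alone against at most 17.0% beside neurons.

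The most abundant of the 88 were Rplp1, Rps29, Rps23, Rps28, Rpl37 and Rpl10, which together gave 18.4% to 25.3% of the summed level in a library. Rplp1, an acidic protein of the stalk that recruits elongation factors, was at 2484, 2875, 1671 and 3025 CPM in microglia alone, 1719, 2113 and 2008 beside untreated neurons, and 1867, 2653, 2211 and 1925 beside fibril-loaded neurons. Library 3 of microglia alone was the lowest and its other 3 libraries were high, and the groups overlapped. Rps29, a small zinc-binding protein of the 40S head, averaged 2162 ± 840.5 CPM in microglia alone, 1799.9 ± 415 CPM beside untreated and 2061 ± 458 CPM beside fibril-loaded neurons. Rps23, which lies in the decoding centre, averaged 1591 ± 740.0 CPM in microglia alone, 2039.7 ± 292 CPM beside untreated and 1957 ± 415 CPM beside fibril-loaded neurons. Neither passed in any comparison. Rps28, another 40S protein, averaged 1596, 1988 and 1860.3 CPM in microglia alone, beside untreated and beside fibril-loaded neurons, Rpl37 averaged 1783, 1319.7 and 1561 CPM, and Rpl10, which joins the 60S subunit late in its assembly, averaged 1657, 1431 and 1499.9 CPM. The order of these 6 should be read loosely, since neighbouring genes differed by less than the spread between libraries.

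Beside untreated neurons no ribosomal protein gene passed the test. The call rate in edgeR's quasi-likelihood test, at an adjusted p below 0.05, was 0 of 87 members tested, where 0.639% of the 11276 genes tested were called. At an unadjusted p below 0.05 there were 9 of 87, near the 10.3% of all genes: Rpl26, Rpl39, Rplp2, Rps21, Rps24 and Rps27l had higher means and Rpl36, Rpl41 and Rps27rt lower means. The ranges of the 2 groups were apart in 4 of 87, higher in Rplp2 and lower in Rpl36, Rpl6 and Rps27rt, where 10.3% of all genes had ranges apart. DESeq2, run as an alternative, called 2 members, Rplp2 (log2 fold change 0.92, adjusted p = 0.02198) and Rpl36 (-0.88, adjusted p = 0.02448), with 4.25% of the 11546 genes it tested called. Without a filter on low counts edgeR called 2 others, Rpl26 and Rps27rt, with 1.66% of 14106 genes called. The median log2 fold change was -0.01 over the members and -0.05 over all genes, with 42 members above 0 and 45 below.

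The 95% intervals, each for a single gene and not adjusted for the number of genes, show how precisely these libraries measured a difference. For 56 of 87 members (64.4%) the 95% interval of the log2 fold change lay within a 2-fold change in either direction, against 8.12% of all genes tested and 29.3% of the 3111 genes of at least 50 CPM. The median half-width of the interval was 0.61 on the log2 scale over members, 1.96 over all genes and 0.81 over genes of at least 50 CPM. A log2 difference smaller than a gene's half-width has an interval that spans 0.

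Rplp2, the other acidic protein of the 60S stalk, encoded at chr7:141447651-141451359, had the smallest p of the members. Its levels were 304, 704, 601 and 459.8 CPM in microglia alone, 923, 1139.8 and 872 beside untreated neurons, and 648, 670.4, 931 and 818 beside fibril-loaded neurons. All 3 libraries beside untreated neurons lay above all 4 of microglia alone, and the fibril group overlapped both. The log2 fold change was 0.92 (SE 0.29, 95% interval 0.32 to 1.52, edgeR adjusted p = 0.195) beside untreated neurons and 0.57 (SE 0.27, 95% interval 0.01 to 1.13, edgeR adjusted p = 0.602) beside fibril-loaded neurons. For its stalk partners the log2 fold change beside untreated neurons was -0.37 (SE 0.26, 95% interval -0.92 to 0.18, edgeR adjusted p = 0.744) for Rplp1 and -0.15 (SE 0.27, 95% interval -0.698 to 0.41, edgeR adjusted p = 0.997) for Rplp0, the scaffold of the stalk. The row Rplp2-ps1, left out by the symbol rule, averaged more CPM than Rplp2. On the sum of both rows, given further on, the relative difference beside untreated neurons was smaller.

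Rpl36, a 60S protein encoded at chr17:56610094-56614246, was at 299, 276, 251 and 344 CPM in microglia alone, 186, 139.7 and 154 beside untreated neurons, and 167, 251, 148 and 189 beside fibril-loaded neurons. Every library of microglia alone lay above every library with neurons, although its library 3 and library 2 beside fibril-loaded neurons were nearly level. The log2 fold change was -0.87 (SE 0.29, 95% interval -1.48 to -0.26, edgeR adjusted p = 0.246) beside untreated and -0.63 (SE 0.27, 95% interval -1.18 to -0.08, edgeR adjusted p = 0.561) beside fibril-loaded neurons. Rpl39, a very small protein that lines the exit tunnel of the nascent chain, is encoded at chrX:37082518-37085222. It was at 447, 1224, 947 and 518 CPM in microglia alone, 1606, 1187 and 1495 beside untreated neurons, and 1072, 1258, 1205 and 1233 beside fibril-loaded neurons. Libraries 1 and 4 of microglia alone were low, while its libraries 2 and 3 were near the co-cultures. The log2 fold change was 0.87 (SE 0.31, 95% interval 0.23 to 1.504, edgeR adjusted p = 0.286) and 0.604 (SE 0.29, 95% interval 0.01 to 1.201, edgeR adjusted p = 0.606).

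Rpl26, a 60S protein near the tunnel exit, encoded at chr11:68901566-68904534, was at 91.4, 272, 120.3 and 102 CPM in microglia alone, 497, 161 and 403 beside untreated neurons, and 223, 225, 161 and 115 beside fibril-loaded neurons. Libraries 1 and 3 beside untreated neurons were high and its library 2 lay within the other groups. The log2 fold change was 1.27 (SE 0.41, 95% interval 0.43 to 2.12, edgeR adjusted p = 0.206) beside untreated neurons against microglia alone. Rpl41, which encodes the shortest protein of the ribosome, was at 2730.5, 1589, 939 and 1621 CPM in microglia alone, 937, 1332 and 1012 beside untreated neurons, and 1179.9, 1081, 1368 and 835 beside fibril-loaded neurons. Its highest value was in library 1 of microglia alone, and all groups overlapped. The log2 fold change was -0.65 (SE 0.31, 95% interval -1.31 to -0.002, edgeR adjusted p = 0.482) beside untreated and -0.62 (SE 0.29, 95% interval -1.22 to -0.03, edgeR adjusted p = 0.594) beside fibril-loaded neurons. Rpl6, an early-assembling 60S protein with the smallest spread of the members, was at 1153, 859.5, 916 and 1320.2 CPM in microglia alone, 817, 799 and 803 beside untreated neurons, and 828, 818, 931 and 866 beside fibril-loaded neurons. With untreated neurons its libraries lay just below all others, with a log2 fold change of -0.398 (SE 0.25, 95% interval -0.91 to 0.12, edgeR adjusted p = 0.648) against microglia alone.

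**Figure D2:**
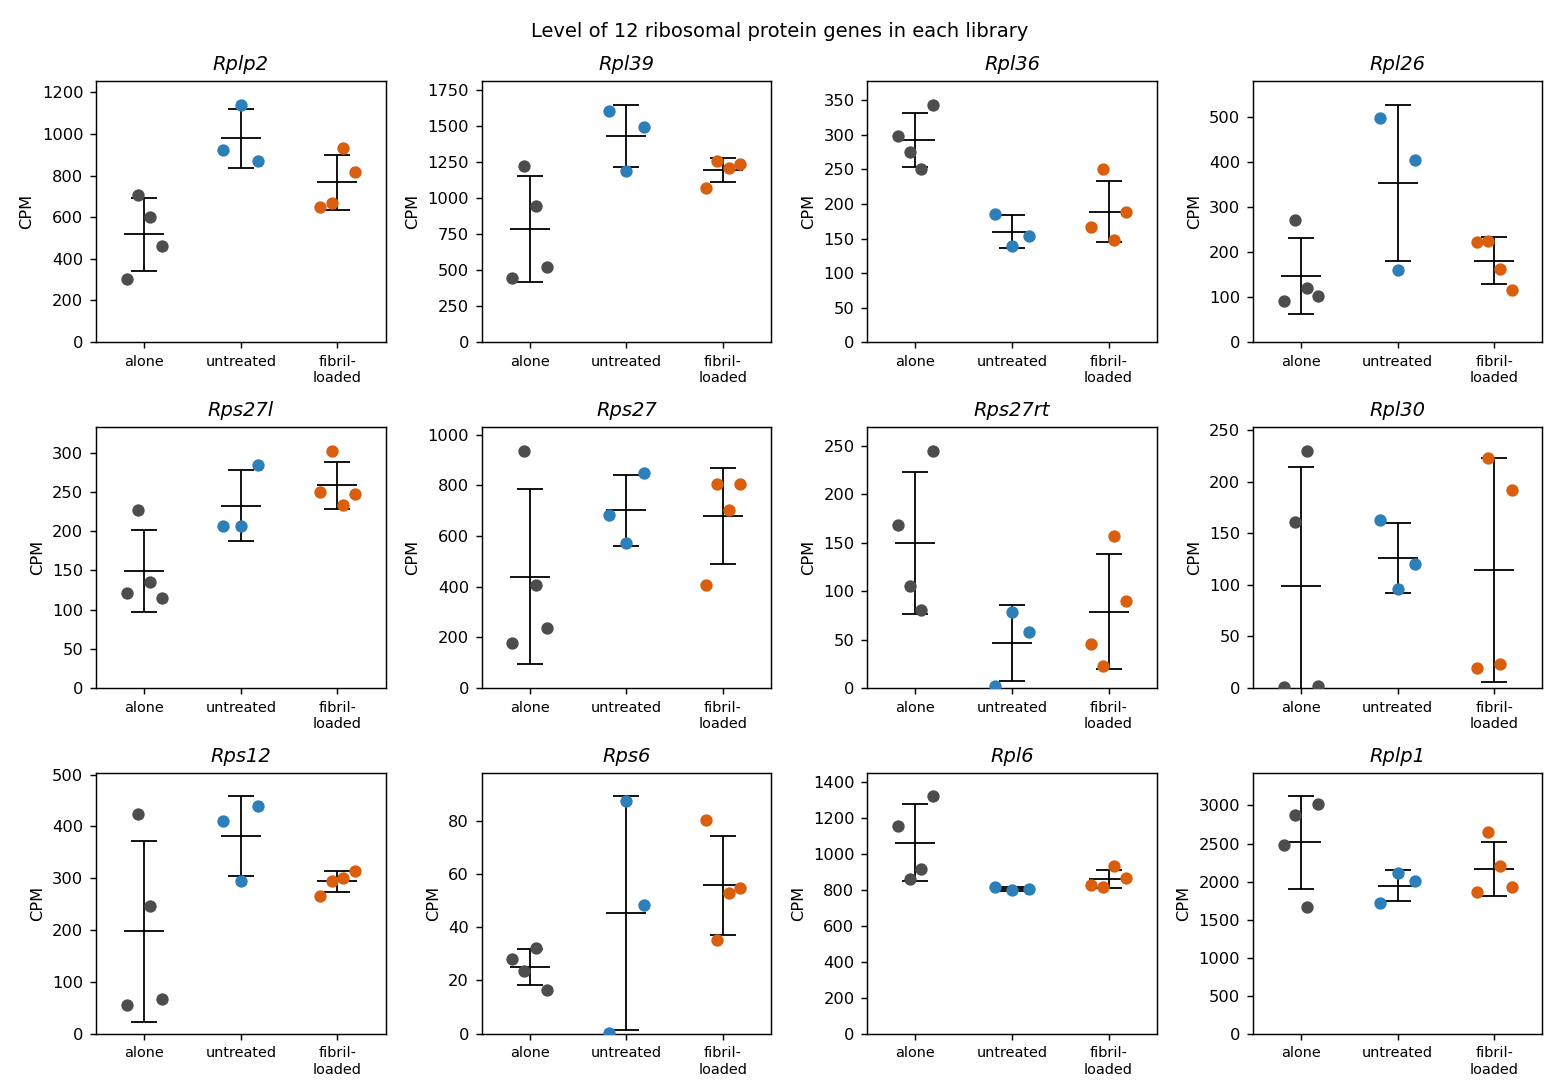
CPM of 12 genes in each library (points), with group means ± SD in black; a bar that would run below 0 is cut at 0, as for Rpl30 in microglia alone. Rplp2 is higher and Rpl36 lower in all 3 libraries beside untreated neurons than in any of microglia alone, while Rpl30 splits within groups, from 0.938 to 231 CPM in microglia alone.

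Beside fibril-loaded neurons, too, no member passed against microglia alone. edgeR called 0 of 87, where 0.319% of all genes were called, DESeq2 called 0, where it called 2.3% of genes, and 5 of 87 had an unadjusted p below 0.05, where 8.14% of all genes did. Those 5 were Rpl39, Rplp2 and Rps27l, with higher means, and Rpl36 and Rpl41, with lower means. Ranges were apart in 4 of 87, among them Rps27l and Rps6, with higher values, and Rpl36, with lower values, against 5.62% of all genes. The median log2 fold change was -0.05 over members and -0.04 over all genes, with 32 members above 0 and 55 below. The 95% interval lay within a 2-fold change for 67 of 87 members (77.0%), against 10.7% of all genes and 37.8% of genes of at least 50 CPM. Both co-cultures were set against the same 4 libraries of microglia alone, so the genes that recur in these 2 comparisons are not independent observations.

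The smallest p in this comparison belonged to Rps27l, a paralogue of Rps27 known as a p53 target, encoded at chr9:66944624-66949522. Its levels were 121, 227, 136 and 115 CPM in microglia alone, 206, 206 and 285 beside untreated neurons, and 249.6, 303, 234 and 248 beside fibril-loaded neurons. All 4 libraries beside fibril-loaded neurons lay above the highest of microglia alone, by a narrow margin over its library 2, and overlapped those beside untreated neurons. The log2 fold change was 0.79 (SE 0.28, 95% interval 0.202 to 1.38, edgeR adjusted p = 0.415) beside fibril-loaded and 0.64 (SE 0.301, 95% interval 0.01 to 1.26, edgeR adjusted p = 0.4802) beside untreated neurons.

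Between the co-cultures the labels differ only in the fibrils, and here too no member passed. edgeR called 0 of 87 members, as it called 0% of the 11276 genes, DESeq2 called 0, where it called 1.38% of genes, and 1 of 87 had an unadjusted p below 0.05, against 3.95% of all genes. That gene was Rpl26, with a log2 fold change of -0.97 (SE 0.41, 95% interval -1.81 to -0.12, edgeR adjusted p = 1) for fibril-loaded against untreated neurons. Rpl35, a 60S protein at the tunnel exit, had -0.49 (SE 0.28, 95% interval -1.07 to 0.09, edgeR adjusted p = 1), and Rps19, a 40S protein mutated in Diamond-Blackfan anaemia, had -0.64 (SE 0.38, 95% interval -1.42 to 0.14, edgeR adjusted p = 1). The means of these 3 genes were lower beside fibril-loaded neurons, and none passed. Ranges were apart for 2 of 87, Rpl6 higher and Rpl32l lower, against 4.68% of all genes. The median log2 fold change was -0.01 over members and 0 over all genes, 41 members lay above 0 and 46 below, and the interval lay within a 2-fold change for 69 of 87 (79.3%), against 11.95% of all genes and 42.2% of genes of at least 50 CPM.

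**Figure D3:**
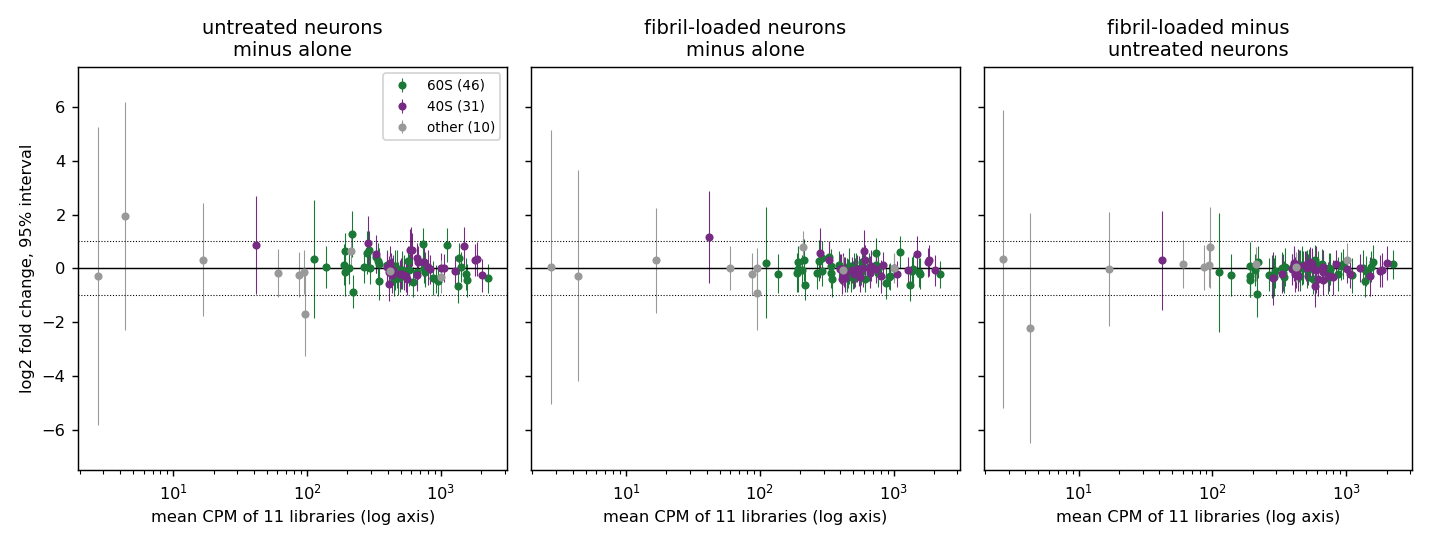
Log2 fold change (points) with its 95% interval (lines) of the 87 members tested against mean CPM on a log axis, in the 3 comparisons; dotted lines mark a 2-fold change and colours the 60S, 40S and other genes. Of the 83 genes of at least 50 CPM, 2, 0 and 0 have points beyond the dotted lines, and the wide intervals belong to the few genes of low level or large spread.

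Members with roles of their own outside or at the edge of the ribosome did not pass. Rpl5 and Rpl11 form the 5S particle that can bind the p53 inhibitor MDM2. Rpl5 averaged 532 ± 129.9 CPM in microglia alone, 497 ± 121 CPM beside untreated and 543 ± 127 CPM beside fibril-loaded neurons, and Rpl11 averaged 733 ± 162 CPM in microglia alone, 735 ± 134 CPM beside untreated and 751 ± 122 CPM beside fibril-loaded neurons. With untreated neurons the log2 fold change was -0.097 (SE 0.29, 95% interval -0.69 to 0.500, edgeR adjusted p = 0.997) for Rpl5 and 0.01 (SE 0.27, 95% interval -0.55 to 0.56, edgeR adjusted p = 0.997) for Rpl11. Rpl13a, which can leave the 60S subunit in myeloid cells and silence inflammatory mRNAs, averaged 1054 ± 419.8 CPM in microglia alone, 827 ± 128 CPM beside untreated and 718 ± 99.6 CPM beside fibril-loaded neurons, with a log2 fold change of -0.35 (SE 0.302, 95% interval -0.98 to 0.28, edgeR adjusted p = 0.845) beside untreated and -0.56 (SE 0.28, 95% interval -1.13 to 0.02, edgeR adjusted p = 0.659) beside fibril-loaded neurons. Rpsa, also known as the laminin receptor precursor, averaged 496, 331 and 379 CPM in microglia alone, beside untreated and beside fibril-loaded neurons. With single libraries left out its log2 fold change against microglia alone was -0.78 to -0.44 beside untreated and -0.56 to -0.22 beside fibril-loaded neurons. Rps27a, made as a fusion with ubiquitin, averaged 1001, 1016 and 1006 CPM. Rpl3, at the peptidyl transferase centre, averaged 208, 212 and 202 CPM. None of these 6 genes passed in edgeR in any of the 3 comparisons.

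The spread between libraries of a group was described by the biological coefficient of variation, the square root of edgeR's dispersion for a gene after moderation towards the trend, which had a median of 0.317 over the 87 members and 0.836 over all genes tested. Among genes of at least 50 CPM the medians were closer, 0.315 for 83 members and 0.393 for all 3111. Over these 83 members the coefficient was lower at higher mean CPM (Spearman rho -0.526). The least variable were Rpl6 (0.284), Rps26 (0.285), Rps13 (0.287) and Rps16 (0.289). Across all 11 libraries the highest CPM of a member was a median of 2.28 times its lowest, from 1.51 times in Rps13 to 246 times in Rpl30, and it was at most 2-fold for 30, over 3-fold for 19 and over 5-fold for 7 of the 83 genes. The order of the 88 genes by CPM had a median Spearman rho of 0.917 between libraries of different groups (40 pairs) and 0.9204 within groups (15 pairs), a description in which all libraries share the same genes and annotation.

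**Figure D4:**
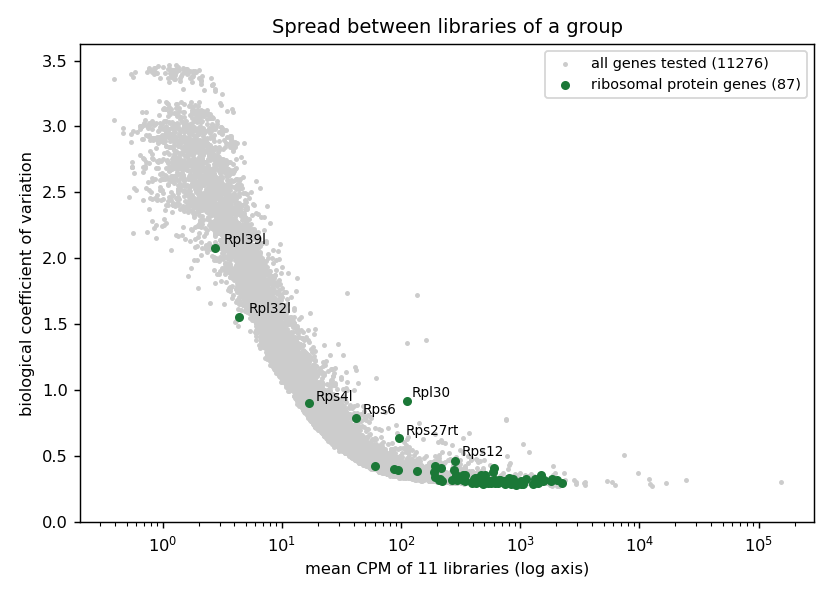
Biological coefficient of variation against mean CPM (log axis) for all 11276 genes tested (grey) and the 87 ribosomal protein genes tested (green). Most members lie on the lower edge near 0.3, and Rpl30, Rps27rt, Rps12 and Rps6 stand above it. So do Rpl39l, Rpl32l and Rps4l, which have low levels.

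Several genes varied more than this. Rpl30, a 60S protein, encoded at chr15:34440505-34443276, had the largest spread of the genes of at least 50 CPM (0.917), followed by Rps27rt (0.6398), Rps12 (0.461) and Rpl7l1 (0.427). It was at 0.938, 161, 231 and 2.17 CPM in microglia alone, 163, 96.1 and 120.3 beside untreated neurons, and 19.4, 223, 23.2 and 192 beside fibril-loaded neurons. Libraries 1 and 4 of microglia alone had 12 and 26 counts, and libraries 1 and 3 beside fibril-loaded neurons 280 and 248, while the other 7 had 1074 to 2905. The low libraries fell in 2 of the 3 groups, and the log2 fold change was 0.36 (SE 1.06, 95% interval -1.84 to 2.56, edgeR adjusted p = 0.997) beside untreated and 0.21 (SE 0.99, 95% interval -1.84 to 2.26, edgeR adjusted p = 1) beside fibril-loaded neurons.

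Rps12, a 40S protein at chr10:23785183-23787383, was at 54.8, 425, 246 and 66.4 CPM in microglia alone, 410.2, 294 and 439 beside untreated neurons, and 266, 295, 300.2 and 314 beside fibril-loaded neurons. Libraries 1 and 4 of microglia alone were again the low ones. For Rps12 the log2 fold change was 0.94 (SE 0.47, 95% interval -0.04 to 1.93, edgeR adjusted p = 0.502) beside untreated and 0.57 (SE 0.44, 95% interval -0.35 to 1.49, edgeR adjusted p = 1) beside fibril-loaded neurons. Rps27, a zinc-finger 40S protein, was at 176, 937, 408 and 237 CPM in microglia alone, 682, 572 and 850.0 beside untreated neurons, and 405, 806, 704 and 806 beside fibril-loaded neurons, with the same 2 libraries lowest. Its log2 fold change was 0.67 (SE 0.41, 95% interval -0.19 to 1.54, edgeR adjusted p = 0.636) beside untreated and 0.63 (SE 0.39, 95% interval -0.18 to 1.44, edgeR adjusted p = 0.846) beside fibril-loaded neurons. Of the 83 genes of at least 50 CPM, 27 had their lowest value of the series in library 1 of microglia alone, 14 in its library 3 and 13 in library 1 beside fibril-loaded neurons. Library 2 of microglia alone held the highest value of 24 genes, its library 4 that of 20, and library 3 beside untreated neurons that of 13. Library 1 of microglia alone also had the highest Rn45s share, 24.8%, and library 1 beside fibril-loaded neurons the fewest genes detected, 9157. Their part in these values was not tested.

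**Figure D5:**
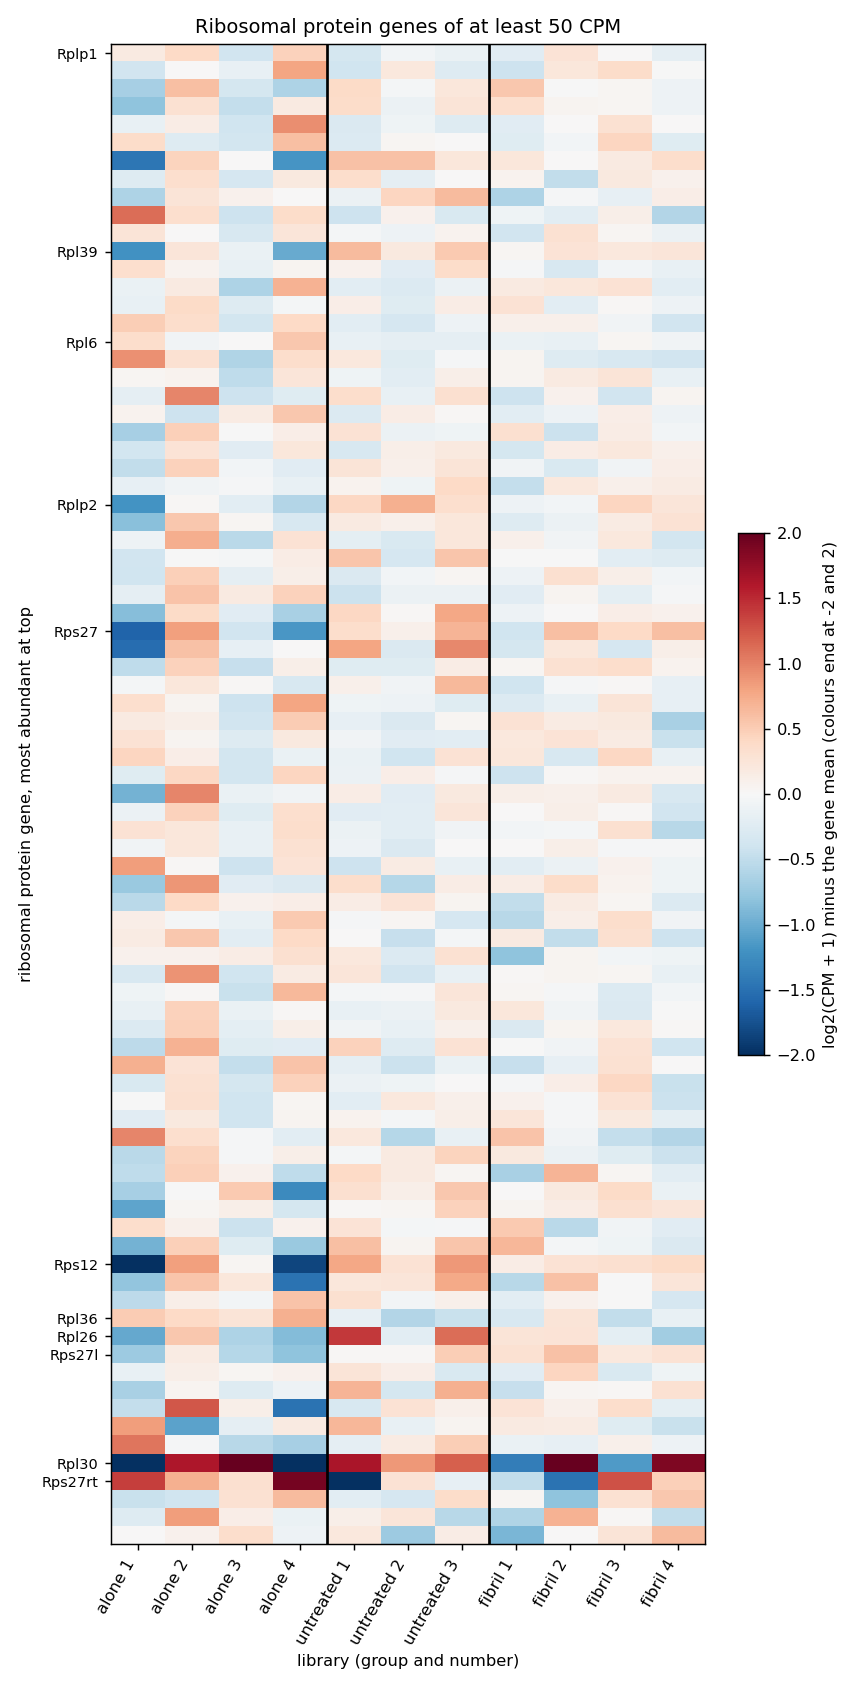
Log2(CPM + 1) of the 83 genes of at least 50 CPM in each library, minus the gene's mean over the 11 libraries, with the most abundant gene at the top and the genes described by library labelled; red is above and blue below the mean, and colours end at -2 and 2. Rpl30, Rps12 and Rps27 are blue in libraries 1 and 4 of microglia alone.

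Several members have close copies in the genome, and for these the split of reads between rows depends on how reads with several matches were counted, which is not given in the sources used here. Rps27rt, encoded at chr9:114982366-114982739, matches the Rps27 transcript over a run of 341 nt with 100% identity, and the leaders printed above share their bases over the tract and the bases after it. It was at 169, 106, 80.5 and 245 CPM in microglia alone, 2.41, 78.6 and 57.3 beside untreated neurons, and 45.5, 22.5, 157 and 89.8 beside fibril-loaded neurons. Its log2 fold change beside untreated neurons was -1.704 (SE 0.74, 95% interval -3.24 to -0.16, edgeR adjusted p = 0.432). Summed over both rows, the pair was at 344, 1043, 488 and 482 CPM in microglia alone, 684, 651 and 907 beside untreated neurons, and 451, 828, 862 and 896 beside fibril-loaded neurons. On that sum the 3 groups overlapped.

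Rps6, the 40S protein phosphorylated downstream of mTORC1, is encoded at chr4:86854099-86857367. It was listed at 27.9, 23.4, 32.1 and 16.4 CPM in microglia alone, 0.121, 87.5 and 48.3 beside untreated neurons, and 80.1, 35.2, 52.8 and 54.7 beside fibril-loaded neurons, the lowest mean of any subunit gene. All libraries beside fibril-loaded neurons lay above all of microglia alone, while those beside untreated neurons spanned both. Library 1 beside untreated neurons had 2 counts, and the log2 fold change beside fibril-loaded neurons was 1.16 (SE 0.83, 95% interval -0.56 to 2.88, edgeR adjusted p = 0.954). Rps6-ps4, which the symbol rule leaves out and which was chosen here after its values were seen, matches Rps6 over 750 nt with 100% identity and averaged 490.3 CPM. Summed over both rows the level was 456, 725, 535 and 468 CPM in microglia alone, 526, 449 and 605 beside untreated neurons, and 597, 554, 529 and 409 beside fibril-loaded neurons. The sum ran from 409 to 725 CPM, with all groups overlapping. For Rps6 the row of its own symbol alone is uncertain for this reason.

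Rpl37rt matches Rpl37 with 99.7% identity and an exact run of 257 nt, and the 2 rows averaged 1009 and 1576 CPM. Rpl32l matches Rpl32 with 97.5% identity and averaged 4.35 CPM against 566 CPM. The 10 rows with -ps in their symbol summed to 2310 to 3266 CPM in a library, small beside the 44628.2 to 64363.4 CPM of the 88 genes. The largest of them, Rplp2-ps1, averaged 959 CPM, above the 734 CPM of Rplp2, and was at 1209.7, 824, 834 and 1168 CPM in microglia alone, 889, 1045 and 830.3 beside untreated neurons, and 973, 934, 1073 and 768 beside fibril-loaded neurons. Together Rplp2 and Rplp2-ps1 averaged 1526 ± 79.04 CPM in microglia alone, 1899.9 ± 253 beside untreated and 1704 ± 200.4 beside fibril-loaded neurons, and all 3 sums beside untreated neurons lay above all 4 of microglia alone. Rplp2 alone averaged 517, 978 and 767 CPM in the same order, so the relative difference was smaller on the sum. No transcript of Rplp2-ps1 was matched, so its identity with Rplp2 was not computed. Its name marks it as a pseudogene. Rpl31-ps12 averaged 567 CPM against 392 for Rpl31 (98.9% identity), and Rps15a-ps6 354 against 395 for Rps15a (98.7%). Rpl17-ps10 averaged 130 CPM against 137 for Rpl17 (99.3%). Rpl34-ps1, Rpl14-ps1 and Rps18-ps4 lay further below their genes, at 142 against 467, 87.0 against 190 and 67.6 against 416 CPM. The rows of these genes, too, depend on how reads were split.

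Other paralogues differ more from their partners in sequence. Rps27l shares 79.1% of aligned bases with Rps27 and no exact run over 11 nt. Rpl36al, which shares 85.6% with Rpl36a, was at 431 ± 107 CPM in microglia alone, 402 ± 35.3 CPM beside untreated and 415 ± 58.01 CPM beside fibril-loaded neurons, above Rpl36a at 228, 367 and 295 CPM in the same order. Rpl22l1, whose protein can replace Rpl22 and acts in splicing, averaged 95.7, 80.9 and 82.7 CPM beside 666, 606 and 685 CPM for Rpl22. Rpl7l1, an assembly factor related to Rpl7, averaged 61.98, 55.3 and 61.95 CPM beside 559, 448 and 475 CPM for Rpl7. Rps4l averaged 14.6, 18.2 and 17.9 CPM beside 559.8, 470.2 and 555 CPM for Rps4x on the X chromosome, and Rpl39l, the testis-enriched form of Rpl39, averaged 2.82, 2.31 and 2.94 CPM. Rps19bp1, a nucleolar partner of Rps19, averaged 96.99, 88.9 and 96.9 CPM. The symbols Rpl3l and Rpl10l, muscle and testis forms of Rpl3 and Rpl10, are not among the 88. None of these genes passed in edgeR in any of the 3 comparisons.

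edgeR called no gene of 6 related lists in any comparison, where it called 0.639%, 0.319% and 0% of all genes. DESeq2 called Mrpl27 higher and Polr1e and Sesn2 lower beside untreated neurons, Mrpl52 higher beside fibril-loaded neurons and Polr1e higher between the co-cultures, and no other gene of these lists, where it called 4.25%, 2.3% and 1.38% of all genes in the 3 comparisons. Among ribosomal proteins with other symbols, the means were 1457, 1374 and 1376 CPM for Fau (ubiquitin-like fusion with a 40S protein) and 514, 426 and 477 CPM for Rack1, a signalling scaffold on the 40S head, in microglia alone, beside untreated and beside fibril-loaded neurons. Neither had an unadjusted p below 0.05 in any comparison.

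Of 15 genes of RNA polymerase I and its factors, the median log2 fold change was -0.18 beside untreated and 0.19 beside fibril-loaded neurons, each relative to microglia alone, and 0.31 between the co-cultures, with 5, 9 and 12 of 15 above 0. At an unadjusted p below 0.05 the counts were 0 higher and 2 lower, 0 and 0, and 1 and 0, where 10.3%, 8.14% and 3.95% of all genes had such a p in either direction. Ubtf, which opens ribosomal DNA for transcription, averaged 111, 60.6 and 104 CPM, with a log2 fold change of -0.88 (SE 0.39, edgeR adjusted p = 0.438) beside untreated neurons. Polr1c, a subunit shared by RNA polymerases I and III, averaged 69.5, 32.9 and 50.02 CPM, and Polr1e 2.1, 0 and 4.58 CPM, with no count beside untreated neurons. Polr1d, Twistnb and Taf1b, with the smallest p beside fibril-loaded neurons, averaged 119.7, 147 and 171 CPM, 44.3, 39.03 and 29.6 CPM and 4.16, 12.9 and 13.5 CPM.

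Of 47 ribosome biogenesis factors, the median was -0.34 beside untreated and 0.12 beside fibril-loaded neurons, each relative to microglia alone, and was 0.26 between the co-cultures, with 18, 28 and 35 of 47 above 0, where 5376, 5400 and 5615 of all 11276 genes were. At an unadjusted p below 0.05 the counts were 0 higher and 2 lower, 0 and 1, and 3 and 0, against 10.3%, 8.14% and 3.95% of all genes in either direction. Nop56, a core protein of the particles that methylate ribosomal RNA, averaged 48.1, 12.98 and 48.3 CPM, with a log2 fold change of -1.89 (SE 0.68, edgeR adjusted p = 0.311) beside untreated neurons. Ddx21, a nucleolar helicase, averaged 306, 176 and 281 CPM, with -0.796 (SE 0.32, edgeR adjusted p = 0.389). Both were lowest beside untreated neurons without passing. Rrp1 averaged 161, 96.1 and 109 CPM, the nucleolar chaperone Npm1 213, 169 and 135 CPM and the GTPase Gtpbp4 75.02, 43.5 and 42.6 CPM.

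Of 16 other TOP mRNA genes, which encode translation factors, none had an unadjusted p below 0.05 in any comparison, and the median was -0.18 beside untreated and -0.13 beside fibril-loaded neurons, each relative to microglia alone. The elongation factor Eef1a1 averaged 1987, 2779.8 and 2477 CPM and Eef2 2045, 1489 and 1357 CPM, the poly(A)-binding protein Pabpc1 1038, 1323 and 1541 CPM, Eif3l 59.97, 33.9 and 37.1 CPM and Eif4b 157, 213 and 149 CPM. Of 22 genes of mTORC1 and translation control, the median was -0.25 beside untreated and -0.09 beside fibril-loaded neurons, each relative to microglia alone, with 2 lower at an unadjusted p below 0.05 beside untreated neurons and 0 in the other comparisons, against the same shares of all genes. Those were Rps6kb1, the kinase of Rps6, at 46.3, 17.8 and 37.5 CPM, and the stress-induced mTORC1 inhibitor Sesn2, at 7.78, 0 and 1.68 CPM. Eif4ebp2 averaged 121, 199 and 151 CPM, Tsc1 26.2, 13.6 and 10.98 CPM, Rheb 37.8, 49.6 and 55.97 CPM and Ddit4 17.1, 7.64 and 4.16 CPM.

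The 78 mitochondrial ribosomal proteins, which build the separate ribosome of mitochondria, had a median of -0.07 beside untreated and 0.102 beside fibril-loaded neurons, each relative to microglia alone. At an unadjusted p below 0.05 there were 3 higher and 2 lower beside untreated neurons, 1 and 2 beside fibril-loaded neurons and 1 and 0 between the co-cultures, of 78 genes each, against 10.3%, 8.14% and 3.95% of all genes in either direction. Mrpl52 averaged 53.1 ± 16.2 CPM in microglia alone, 109 ± 28.4 CPM beside untreated and 122 ± 5.702 CPM beside fibril-loaded neurons, with a log2 fold change of 1.201 (SE 0.32, edgeR adjusted p = 0.147) beside fibril-loaded neurons. In DESeq2 its adjusted p was 0.0150. Mrpl27 averaged 27.6, 71.97 and 47.1 CPM, Mrpl36 27.8, 69.3 and 55.6 CPM, Mrps6 48.96, 18.7 and 17.7 CPM and Mrpl54 97.2, 70.1 and 50.7 CPM, and none of them passed in edgeR.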

How the data were processed

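The 11 libraries were made with a QuantSeq 3′ mRNA kit (forward) from RNA of a micro-column kit, per the labels' protocols. The authors deposited raw counts per gene symbol for all libraries in 1 table; counts longer than 6 digits are rounded to 6 significant digits. STAR, Partek, DESeq2 and mm10 are named, with no version, per the submitters' processing notes. How reads with several matches, strand and duplicates were treated is not given in the sources used here. A normalized table was not used here. Groups were taken from the treatment group of each sample, and libraries were numbered in order of deposition.

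Counts of 16934 genes (2828 with none) went through edgeR 4.0.16 in R 4.3.3: filterByExpr left 11276 genes, TMM scaling, and a two-sided quasi-likelihood test with the group of each of the 11 libraries as its single term, Benjamini-Hochberg adjusted over all genes tested, threshold 0.05. Counts behind CPM are of reads without molecular identifiers, so their precision covers counting error only; edgeR's intervals include the spread between libraries. Rn45s shares were compared by exact permutation in scipy 1.17.1. Transcripts of GENCODE M21 were aligned with Biopython 1.88. All 88 genes matched a RefSeq position of GRCm38.p6, whose coordinates are those of mm10. The code was tested on simulated data.

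The members and lists were chosen with earlier results of these data known. Named were: the 4 members with the smallest p per comparison (no member passed), the 6 most abundant, the 4 most and 4 least variable of at least 50 CPM, a set of fixed roles and paralogue pairs, the 3 genes with the smallest p per related list against microglia alone, and Rn45s; a few of these are left out of the text. Genes with CPM ranges apart or an unadjusted p below 0.05, the -ps rows and Rps6-ps4 were named after their values were seen. Alternatives were DESeq2 1.42.0, RLE factors, library totals, Rn45s removed, scaling without the members, no low-count filter, a mean of at least 5 CPM, 2 groups only, runs of the library codes as a block, and libraries left out.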

Additional observations from a re-analysis of the deposited data

Results flagged for a closer look

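In the 88 groups of 4 libraries examined for a library far from its fellows, 3 stood apart by Dixon's criterion at 95%, where chance alone marks about 1 in 20. Rpl26 was at 271.9 CPM in library 2 of microglia alone, with the other 3 between 91.4 and 120.3 CPM. Without that library its log2 fold change beside fibril-loaded neurons moved to 0.81 (edgeR adjusted p = 0.591). Rpl39l was at 9.46 CPM in library 3 of microglia alone, with the others between 0 and 1.58 CPM. Rn45s took 17.0% of counts in library 1 beside fibril-loaded neurons, the library with the fewest genes detected, with the others of the group between 10.97% and 11.72%. Groups of 3 were not examined.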

How the results depend on the processing

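Every alternative run left the count of members called at 0 in the 3 comparisons, except that for untreated neurons against microglia alone DESeq2 called 2 (Rplp2 and Rpl36, each under an adjusted p of 0.05) and edgeR without a low-count filter called 2, Rpl26 (log2 fold change 1.26, adjusted p = 0.0197) and Rps27rt (-1.72, adjusted p = 0.0067), where 1.66% of 14106 genes were called. The cause was not tested. Leaving out each library in turn gave 0 to 0 members called in edgeR in each comparison, and medians of the members' log2 fold change of -0.09 to 0.07, -0.11 to 0.08 and -0.07 to 0.02 for untreated against alone, fibril-loaded against alone and fibril-loaded against untreated. Scaling by library totals only moved the median of all genes from -0.05 to 0.05 and from -0.04 to 0.07 in the comparisons with microglia alone, and the members above 0 from 42 to 53 and from 32 to 52, so the sign of a small difference depends on the scaling. Summed CPM with Rn45s removed were 63475.6, 64199.3 and 61829.6 in microglia alone, beside untreated and beside fibril-loaded neurons, higher because the total is then smaller. The difference in Rn45s share between the co-cultures, 0.113 percentage points, turned to -0.457 and -0.852 without libraries 2 and 3 beside untreated neurons and to -1.30 without library 1 beside fibril-loaded neurons, within a range of -1.30 to 1.65 (exact permutation p adjusted over 3 comparisons 0.533 to 1). Against microglia alone it ran from -8.53 to -4.93 and from -8.42 to -4.82. With the library of fewest detected genes dropped from each group, the log2 fold change of Rpl36a beside fibril-loaded neurons was -0.0342, and without library 3 of microglia alone that of Polr1e beside untreated neurons was 0 (range over libraries left out -8.17 to 0), as neither group then had a count. In DESeq2, Mrpl52 (1.195), Mrpl27 (1.38), Sesn2 (-9.29) and Polr1e (-21.42, and 22.55 between the co-cultures) also passed; the last 2 had no count beside untreated neurons, so those values are no bound. The libraries' facility codes fall into 4 runs, and the labels do not say what the codes mean. Runs 2, 3 and 4 each hold 1 library of every group, and run 1 holds library 1 of microglia alone and library 4 beside fibril-loaded neurons. With these runs as a replicate block edgeR called 0, 0 and 0 members, and medians were -0.05, -0.04 and 0.02. Deviations of libraries of the same run correlated at -0.112 to 0.299 over 3111 genes. Between the co-cultures the values were 0.299, 0.191 and 0.041, and against microglia alone -0.112 to 0.225. Libraries of different runs were not compared in this way, so the correlations cannot settle whether the runs are a pairing. The main test did not use the runs. For untreated neurons against microglia alone edgeR called 72 genes without the block and 95 with it. Other gene values kept their side of the threshold. Depth limits Rps23rg1, which had at most 3 counts in a library and was under the low-count filter.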
